A study of Mus musculus with 32 samples.

Results

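*Spi1*, *Cebpa*, *Cebpb*, *Runx1*, *Maf*, *Klf4*, *Myb*, *Myc* and *Gfi1*, 9 transcription factor genes that set or accompany the macrophage lineage, were followed by RNA sequencing in bone marrow derived macrophages (BMDMs) on days 1, 2, 3 and 4 after induced loss of *Trex1*. The 9 were taken from the deposited table by matching its Ensembl identifiers, with the version removed, to these mouse symbols. All 9 were found among 54281 identifiers, in each of 32 libraries. *Trex1* FL/FL R26 CreERT2 cells carried 2 floxed *Trex1* alleles and *Trex1* WT/FL R26 CreERT2 cells kept 1 wild type allele. All cells, controls included, carried the tamoxifen-activated recombinase CreERT2, expressed from the ubiquitously active *Rosa26* locus. Marrow from these mice was differentiated for 6 days in medium with 30% L929 supernatant, a source of the macrophage growth factor M-CSF, and part of the cultures received 2 µg/ml (Z)-4-hydroxytamoxifen (4-OHT) for 22 h. Genotype, treatment and day gave 16 groups of 2 libraries. The replicate numbers 1 and 2 used below are the order of the sample records within a group, not identities given by the labels. The labels name neither the animals nor their age, nor a batch, and do not say whether paired libraries came from separate cultures, so p-values measured only the spread between these libraries. The 4-OHT FL/FL cells are called the *Trex1*-deleted arm, and the untreated WT/FL, untreated FL/FL and 4-OHT WT/FL cells the control arms (6 libraries a day).

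Lineage transcription factors act together on shared enhancers. PU.1, the product of *Spi1*, is required for myeloid cells and opens their enhancers, where C/EBP and RUNX proteins also bind. C/EBPα drives the step from multipotent progenitor to granulocyte and macrophage progenitor, while KLF4 is linked to monocytes and c-MAF to mature macrophages that have left the cell cycle. MYB, MYC and GFI1 belong to the earlier, dividing stages: MYB maintains progenitors, MYC drives growth and cell division, and GFI1 is a repressor that favours granulocytes.

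The promoters are shown because these proteins are known to bind one another's genes. In the 300 bases around each member's canonical start (250 before it, 50 from it; GRCm39, GENCODE M39), 7 motifs were searched on both strands. They were the E-box CACGTG bound by MYC and MAX, the C/EBP motif TTGCNNAA, the PU.1 motif GAGGAAG, the RUNX motif TGTGGT, the MAF half-site TGCTGAC, the IRF motif (2 copies of GAAA with 2 bases between them) and the AP-1 motif TGANTCA. Among 21757 promoters of that length they occurred in 7.8%, 10.7%, 13.2%, 15.3%, 4.1%, 3.8% and 7.1%, respectively. At least 1 motif was matched in 4 of the 9 members, and 5 (*Cebpa*, *Cebpb*, *Myb*, *Myc*, *Gfi1*) held none of these letters in this window. How many of the 21757 promoters held at least 1 of the 7 was not counted, so 4 of 9 is not read as more than background. Binding was not tested. In the following stretches, read 5′ to 3′ on the gene's strand, capitals mark the motif: 2 copies of PU.1 in *Spi1*, the E-box in *Klf4*, C/EBP in *Maf* (a match on the opposite strand) and RUNX in *Runx1* (also on the opposite strand). *Runx1* also held the E-box, at position 4 from its start, outside the stretch shown. They lie at chr2:90926381-90926440 (+), chr4:55532628-55532687 (−), chr8:116434739-116434798 (−) and chr16:92623228-92623287 (−).
Spi1: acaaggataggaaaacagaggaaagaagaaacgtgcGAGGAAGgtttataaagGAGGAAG
Klf4: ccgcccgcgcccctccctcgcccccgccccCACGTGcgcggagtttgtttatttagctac
Maf: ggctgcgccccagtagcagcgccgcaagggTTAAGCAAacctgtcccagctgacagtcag
Runx1: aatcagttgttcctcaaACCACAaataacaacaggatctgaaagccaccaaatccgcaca

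Libraries held 35120505 to 63760884 counts (median 44841991). *Trex1* followed the labels. The deleted arm had 0 *Trex1* counts in both libraries on days 1, 3 and 4 and 14 and 9 on day 2, against 758 to 3622 in 4-OHT WT/FL cells. Of 4 mast cell and basophil markers, *Mcpt8* and *Fcer1a* were at 0 in all 32 libraries. *Ms4a2* had 1 count at most and was at 0 in 31 libraries. *Cpa3* had 8 counts at most and was at 0 in 20 libraries. Summed over 9 macrophage markers, the level was 16785 to 18585 CPM (counts scaled to the library total with edgeR's TMM factors) in the control arms on day 1 and 33584 to 37560 on day 4. One library stood apart before any comparison, replicate 2 of untreated FL/FL cells on day 1: the chi-square per degree of freedom between it and its partner was 49.0, against 9.07 to 20.6 in the other 15 groups. It had less *Spi1* (268 against 327 CPM), *Cebpa* (45.8 against 70.4 CPM) and *Cebpb* (104 against 162 CPM) than its partner. The day 1 to day 4 changes of these 3 genes in the control arms, and the counts of members past the test there, are also given without it. Other changes from day 1 in those arms are given with it only. Each gene's spread was estimated over all 32 libraries together. This pair therefore also entered tests of these 3 genes that did not compare its group.

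*Gfi1* and *Myb* were barely detected. *Gfi1* had 0 counts in 16 of 32 libraries and 9 at most, and was not tested because it stayed under the minimum count of 10. *Myb* had 0 to 36 counts (median 12.5) and was tested at that low level. The other 7 had from 76 counts (*Myc*) to 62042 (*Maf*) in their lowest and highest library, respectively. Per kilobase of exon, the mean level in the control arms on day 1 was 105 CPM for *Spi1*, 104 for *Cebpb*, 36.9 for *Maf*, 25.3 for *Myc*, 24.8 for *Cebpa*, 9.66 for *Klf4* and 4.34 for *Runx1*. *Spi1* and *Cebpb* overlapped across the 6 libraries, as did *Myc* and *Cebpa*. On day 4 the order per kilobase was *Cebpb* (139 CPM), *Spi1* (138), *Maf* (117), *Cebpa* (65.8), *Runx1* (8.45), *Myc* (5.97) and *Klf4* (3.61). On day 4 the ranges of *Cebpb* and *Spi1* overlapped, and that of *Cebpb* (119 to 157) also reached that of *Maf* (112 to 121).

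**Figure D1:**
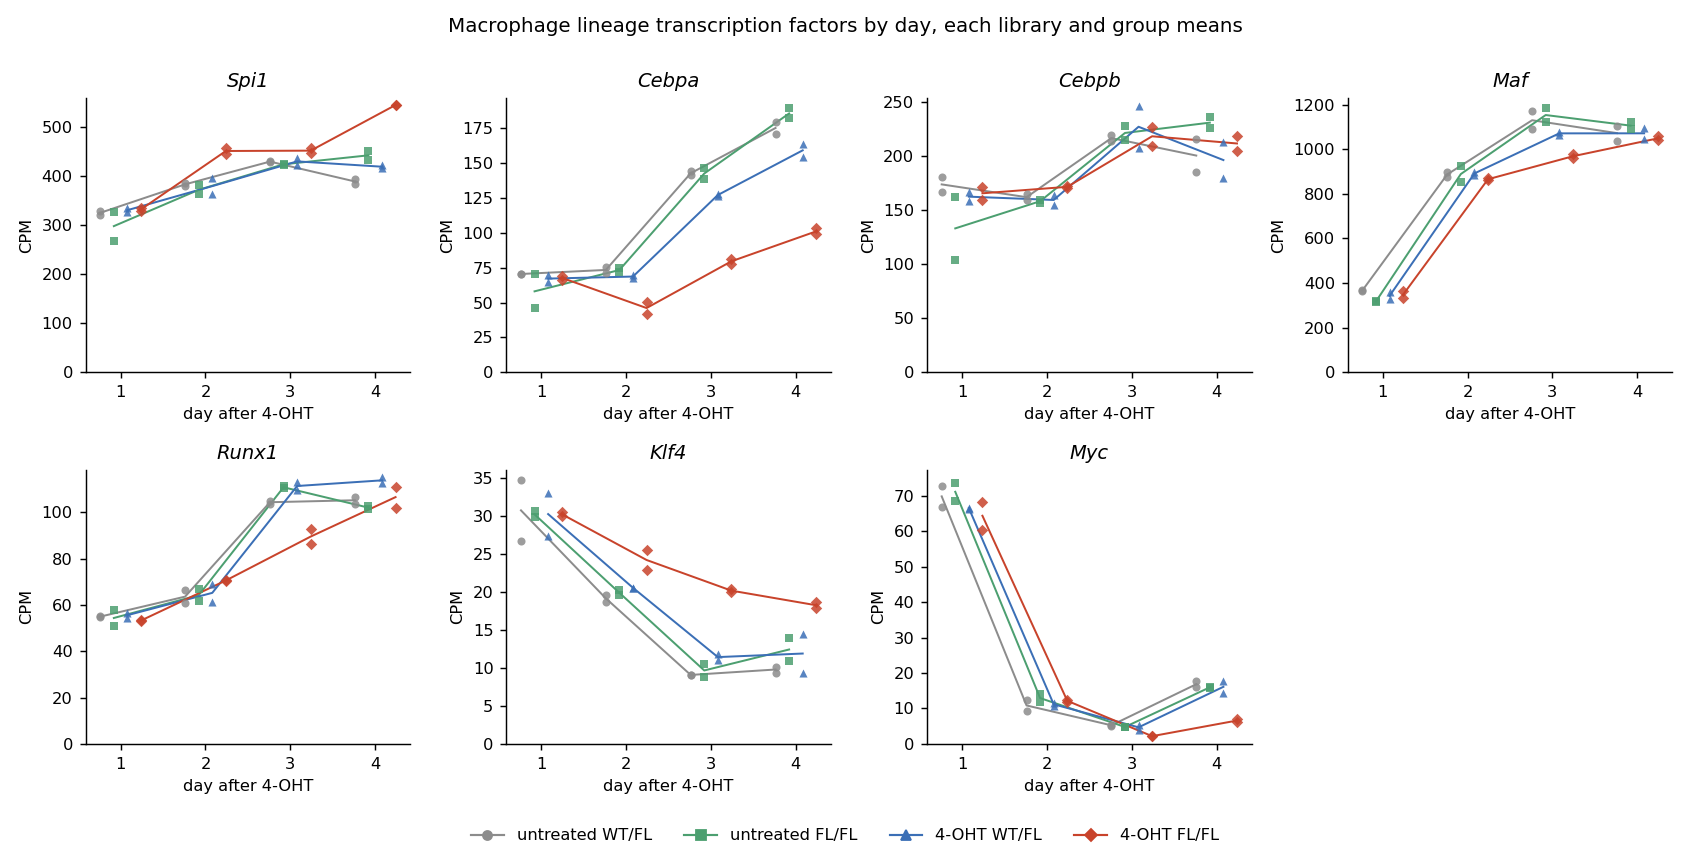
Level in CPM (vertical axis) of the 7 well-counted members by day after 4-OHT (horizontal axis), with 1 point per library and lines through the means of the 2 libraries of each group. *Maf* climbed from 317 to 371 CPM on day 1 to 1038 to 1121 CPM on day 4 in the control arms, *Myc* fell to 3.98 to 5.40 CPM on day 3, and in the *Trex1*-deleted arm *Cebpa* lay below and *Klf4* above every control library on days 2, 3 and 4. The share of all genes lying outside the controls was not counted.

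Between day 1 and day 4 the control arms gained *Spi1*, *Cebpa*, *Cebpb*, *Maf* and *Runx1* and lost *Klf4* and *Myc*. In edgeR's quasi-likelihood fit over 15257 genes, 7 of 8 tested members passed the test (Benjamini-Hochberg adjusted p under 0.01), 5 higher and 2 lower. Of all genes tested, 69.8% passed in the same comparison (35.6% higher, 34.2% lower), so the share among the members is read against a background in which most genes moved. With a log2 fold change beyond 1.5 also required, 2 members (*Maf* and *Myc*) remained, against 17.8% of genes. Since these are bulk cultures, fewer cells of a type and less RNA per cell cannot be told apart here.

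The day on which each member moved differed. From day 1 to day 2, 5 members passed, 3 higher and 2 lower, against 55.6% of all genes (28.6% higher, 27% lower). Between days 2 and 3, 7 passed, 5 higher and 2 lower, against 54.7% (28.3% and 26.4%). Between days 3 and 4, 2 passed, both higher, against 29.6% (14.6% and 15%). The counts of members were the same (5, 7, 2 and 7 with day 1 to day 4) without the library that stood apart. *Maf* took most of its rise in the first interval, *Cebpa* and *Runx1* in the second, and *Myc* fell in both and partly returned in the third.

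*Maf* (ENSMUSG00000055435.6, chr8:116409632-116434579, − strand), which encodes the macrophage factor c-MAF, had 317, 342 and 371 CPM (lowest, median and highest of 6 control-arm libraries) on day 1 and 854, 891 and 923 on day 2. On day 3 it had 1066, 1105 and 1185 CPM, and on day 4 1038, 1092 and 1121. No library of day 1 reached any of the later days, while days 3 and 4 overlapped. The log2 fold change was 1.38 (SE 0.0321, adjusted p = 4.18e-23) from day 1 to day 2 and 0.33 (SE 0.0315, adjusted p = 4.85e-10) from day 2 to day 3. From day 3 to day 4 it was −0.05 (adjusted p = 0.272). Over the whole course *Maf* rose 3.17-fold. Genes linked to c-MAF, the complement genes *C1qa* (2.65), *C1qb* (2.64) and *C1qc* (2.55) and the cytokine gene *Il10* (1.88), rose as well (4 of 4, median log2 fold change 2.59, against 0.02 over all genes tested).

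*Cebpa* (ENSMUSG00000034957.10, chr7:34818718-34821353, + strand), the gene of C/EBPα, had 45.8, 70.1 and 70.6 CPM in the control arms on day 1 and 67.3, 71.7 and 75.3 CPM on day 2. It then had 127, 140 and 147 CPM on day 3 and 155, 175 and 189 CPM on day 4. Days 1 and 2 overlapped, and each later day lay above the one before. It rose from day 2 to day 3 (log2 fold change 0.94, SE 0.0667, adjusted p = 6.96e-11) and from day 3 to day 4 (0.33, SE 0.0656, adjusted p = 0.000326). The second of these rises did not pass in any control arm taken alone (0.30 to 0.38, adjusted p 0.0195 to 0.0739; 12.3%, 13.6% and 12.2% of all genes passed in untreated WT/FL, untreated FL/FL and 4-OHT WT/FL). From day 1 to day 4 the rise was 2.66-fold, and the log2 fold change of 1.41 became 1.32 without the library that stood apart.

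*Runx1* (ENSMUSG00000022952.17, chr16:92398354-92623037, − strand), whose product pairs with CBFβ and starts blood formation, had 50.7, 55.0 and 58.0 CPM on day 1, 60.8, 64.1 and 69.2 on day 2, and 104, 110 and 113 on day 3. Day 4, with 101, 105 and 115 CPM, overlapped day 3, whereas days 1, 2 and 3 were separate. The rise was 0.23 on the log2 scale from day 1 to day 2 (SE 0.0377, adjusted p = 6.68e-06) and 0.76 from day 2 to day 3 (SE 0.0376, adjusted p = 4.29e-16), giving 1.95-fold over the whole course. Its partner *Cbfb* fell over the same days (log2 fold change −1.09), and its relatives *Runx3* and *Runx2* fell by 3.65 and 0.61 on the log2 scale.

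*Spi1* (ENSMUSG00000002111.8, chr2:90912562-90946101, + strand) changed little by comparison. It had 268, 327 and 334 CPM on day 1, 362 to 395 on day 2, 422 to 436 on day 3, and 383, 419 and 451 on day 4. The days were separate up to day 3, and day 4 spanned day 3. The log2 fold change was 0.25 from day 1 to day 2 (adjusted p = 3.67e-07) and 0.18 from day 2 to day 3 (adjusted p = 6.58e-05). The latter passed in no single control arm (0.16 to 0.19, adjusted p 0.0113 to 0.0272). The whole rise was 1.31-fold (log2 fold change 0.39, or 0.34 without the library that stood apart). Its relative *Spic*, the factor of iron-recycling macrophages, went from 0.542 to 1.39 CPM on day 1 to 22.0 to 24.3 CPM on day 4 (log2 fold change 4.60, SE 0.143).

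*Cebpb* (ENSMUSG00000056501.3, chr2:167530835-167532338, + strand), the C/EBP member linked to inflammatory genes, was at 104, 164 and 181 CPM on day 1 and 155, 159 and 165 CPM on day 2. It reached 208, 217 and 247 CPM on day 3 and 179, 215 and 237 CPM on day 4. Day 3 lay above day 2, and the highest day 1 library lay within the range of day 4. The rise from day 2 to day 3 was 0.47 on the log2 scale (SE 0.0788, adjusted p = 3.34e-05). From day 1 to day 4 it was 0.43 (adjusted p = 7.39e-05) in all control arms, but alone it passed only in untreated FL/FL cells, the arm with the library that stood apart (0.79, adjusted p = 4.68e-05; untreated WT/FL 0.21, adjusted p = 0.199; 4-OHT WT/FL 0.27, adjusted p = 0.0888). Without that library the pooled value was 0.33. *Cebpb* also overlaps *Peds1* (4700 to 9622 counts) on the opposite strand, and whether counting used the strand is not stated in the sources used here.

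*Klf4* (ENSMUSG00000003032.8, chr4:55527139-55532528, − strand), linked to monocytes and to cell cycle exit, had 26.7, 30.2 and 34.8 CPM on day 1 and 18.7, 19.9 and 20.6 CPM on day 2. It had 8.79, 9.85 and 11.8 CPM on day 3 and 9.36, 10.6 and 14.4 CPM on day 4. The first 3 days were separate and the last 2 overlapped. It fell by 0.61 on the log2 scale from day 1 to day 2 (SE 0.0818, adjusted p = 3.35e-07). The fall over the next day was 0.99 (SE 0.0858, adjusted p = 2.05e-10). Over the whole course it fell 2.68-fold. Of its transcript sequence, 5.81% of the 31-base words also occur in other genes, against 0.561% at most for the other members.

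*Myc* (ENSMUSG00000022346.15, chr15:61857227-61862223, + strand), which drives growth and division, had 66.3, 67.7 and 73.7 CPM in the control arms on day 1, 9.28, 11.7 and 14.0 on day 2, 3.98, 4.93 and 5.40 on day 3, and 14.5, 16.1 and 17.8 on day 4. All 4 days were separate from one another. It fell by 2.57 on the log2 scale from day 1 to day 2 (SE 0.0713, adjusted p = 2.31e-21). Over the next day it fell by 1.24 (SE 0.0779, adjusted p = 1.01e-13), and over the last it rose by 1.74 (SE 0.0772, adjusted p = 2.17e-15). Day 4 remained 4.24-fold below day 1.

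Genes linked to MYC went the same way. Of 20 growth and ribosome-making genes, 0 rose and 20 fell from day 1 to day 4 (median log2 fold change −1.25), among them *Srm* (−2.23), *Nop58* (−1.95) and *Odc1* (−1.94), which serve polyamine synthesis and ribosome assembly. From day 3 to day 4, 17 of the 20 rose (median 0.36). All 15 cell division genes fell from day 1 to day 4 (median −3.49), with *Rrm2* at −4.07, *Ccna2* at −3.84 and *Ccnb1* at −3.79, and all 15 rose from day 3 to day 4 (median 1.02). Summed over those 15, the control arms had 3512 to 3800 CPM on day 1, 283 to 320 on day 3 and 515 to 580 on day 4, and the part of this in the *Myc* values was not tested. The MYC antagonists *Mxd1* and *Mxd4* rose (1.58 and 1.42), while *Mxd3* fell (−3.54) and the shared partner *Max* did not pass (0.02, adjusted p = 0.677).

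*Myb* (ENSMUSG00000019982.15, chr10:21000834-21036883, − strand) had 16 to 29 counts in the control libraries on day 1 and 10 to 20 on day 4, and the ranges overlapped. Its log2 fold change of −0.36 did not pass (SE 0.344, adjusted p = 0.35). Its relatives that act in dividing cells did fall, *Mybl2* by 4.29 and *Mybl1* by 2.66 on the log2 scale. *Gfi1* (ENSMUSG00000029275.18, chr5:107864523-107873902, − strand) had 0 to 9 counts in the control libraries on day 1 and 0 to 7 on day 4, too few for a change to be detectable. Progenitor and granule genes were likewise low: *Mpo*, *Cd34*, *Ctsg* and 5 others together had 15.9 to 22.0 CPM on day 1 and 0.130 to 0.755 on day 4, and 6 of the 7 tested fell. Most of the day 1 sum was *Cd34* (13.0 to 19.1 CPM), with *Mpo* at 0.431 to 1.97 CPM and *Ctsg* at 0.0524 to 0.533 CPM. Of the neutrophil markers, 1 of 8 tested fell (*Mmp8*, −2.33). Markers of other cell types were few: 1 of 3 dendritic cell (*Zbtb46*), 1 of 1 B cell (*Cd79b*), 1 of 1 erythroid (*Epor*) and 1 of 4 stromal markers tested (*Pdgfrb*) rose, and no mast cell or T cell marker was counted high enough to test. Their part in the members' changes was not tested.

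**Figure D2:**
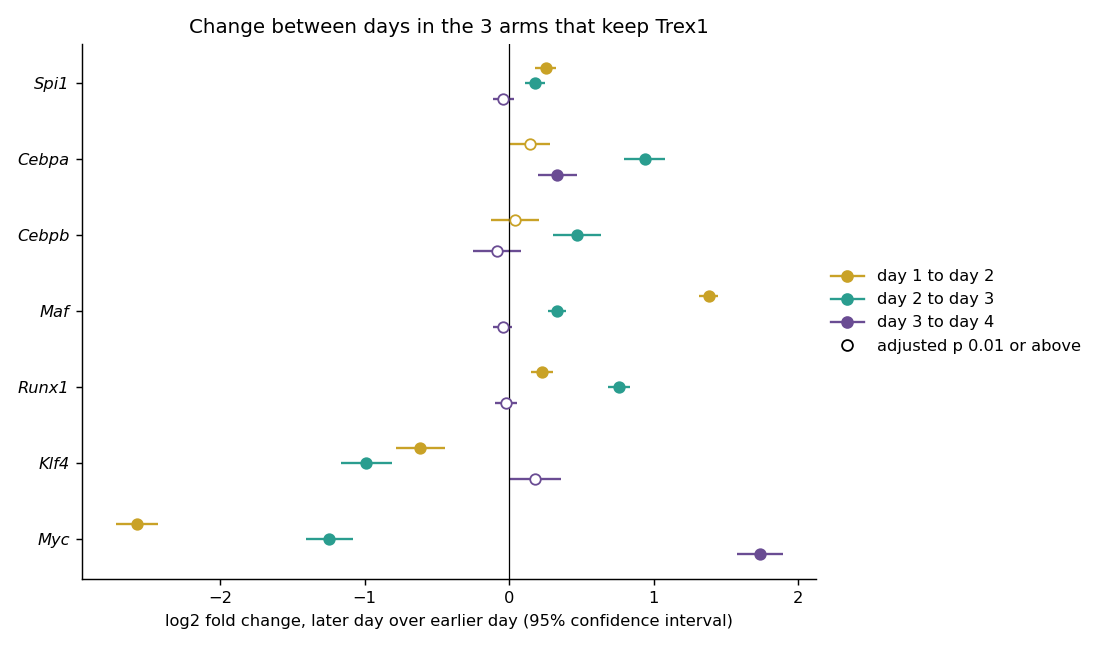
Log2 fold change (horizontal axis) of 7 members, without *Myb* and *Gfi1*, between days in the control arms, with 95% confidence intervals and filled points where the adjusted p is under 0.01. *Maf* moved by 1.38 from day 1 to day 2, *Cebpa* by 0.94 from day 2 to day 3, and *Myc* by −2.57, −1.24 and 1.74 over the 3 intervals.

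Among related genes, the direction was mixed. Of 24 tested family members and partners of the 9, over the whole course 11 rose and 10 fell (median −0.03). Of 15 other macrophage and dendritic cell factors, 12 rose and 2 fell (median 0.69), the interferon-linked *Irf8* by 2.10 and the immediate early gene *Egr1* by 3.74, while *Bhlhe40* and *Id2* fell (−3.57 and −0.42). Of 11 tested progenitor factors, 5 rose and 4 fell (median 0.05): *Lyl1* (1.80) and *Lmo2* (1.56) rose, and *Gata2* (−3.01) and *Hoxa9* (−2.11) fell. All 9 macrophage markers rose (median 1.89), for example the phagocytic receptor gene *Mertk* (2.64), *Adgre1*, which encodes F4/80 (2.27), and *Mpeg1* (1.98). Interferon-inducible genes rose too (9 of 10, median 2.86; *Ifi44* 5.04, *Ifit3* 4.61, *Irf7* 4.14), and their part in the members' changes was not tested.

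The *Trex1*-deleted arm passed through the same days with 7 members past the test from day 1 to day 4 (4 higher, 3 lower), against 56% of all genes (28.3% and 27.7%). By interval, 6 passed from day 1 to day 2 (3 higher, 3 lower), against 41.1% of genes (21.7% and 19.4%). Then 3 passed from day 2 to day 3 (2 higher, 1 lower), against 33.1% (15.1% and 18%), and 3 from day 3 to day 4, all higher, against 9.33% (3.64% and 5.7%). Those 3 were *Spi1* (0.27), *Runx1* (0.25) and *Myc* (1.60). The *Spi1* call was lost without any 1 of its 4 libraries (adjusted p 0.0151 to 0.0379). The *Runx1* call was lost without any 1 of 7 libraries, its own 4 among them (0.19 to 0.31, adjusted p 0.0102 to 0.13), and without the count filter (adjusted p = 0.0108). *Spi1* rose by 0.71 (SE 0.0606), *Maf* by 1.59 (SE 0.056), *Runx1* by 1.00 (SE 0.0658) and *Cebpa* by 0.58 (SE 0.116). *Klf4* fell by 0.73 (SE 0.144), *Myc* by 3.29 (SE 0.133), and *Myb*, from 36 and 21 counts to 0 and 0, also passed (adjusted p = 2.99e-06). *Myb* is in the fit only through early groups and groups that kept *Trex1*, so its fall is not counted as support, leaving 6 members from day 1 to day 4 and 5 from day 1 to day 2. Its call from day 1 to day 2 was lost without replicate 1 of day 1 or either library of day 2 (adjusted p 0.0167 to 0.0291). *Cebpb* did not pass (0.35, adjusted p = 0.03), but did, at the same size, once either untreated FL/FL library of day 1 was left out (adjusted p = 0.000525 and 0.000528). From day 1 to day 2 *Cebpa* fell in this arm (−0.56, SE 0.118, adjusted p = 0.000462; without replicate 2 of day 2, −0.44, adjusted p = 0.0176), while in the control arms it was at 0.14 (adjusted p = 0.0698). The difference between the arms in that step, taken against 4-OHT WT/FL, was −0.59 and did not pass (adjusted p = 0.0407; 3.02% of all genes passed), though it did without either untreated FL/FL library of day 1 (adjusted p = 4.65e-05 and 4.7e-05).

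Next, 4-OHT FL/FL was compared with 4-OHT WT/FL on each day. This sets cells with 2 floxed *Trex1* alleles against cells with 1, all after 4-OHT. It follows the loss of *Trex1* RNA, which came before that of the protein. By the study's Western blots, much TREX1 protein was still present on day 2 and almost none on day 3. On day 1, 0 of 8 members passed edgeR's test, 0 had an unadjusted p under 0.05 and 0 passed with DESeq2 (0.0197% of all genes passed in edgeR). On day 2, 2 passed, 1 higher and 1 lower, against 8.17% of genes (5.69% and 2.48%). On day 3, 5 passed, 1 higher and 4 lower, against 12.1% (6.69% and 5.42%), and on day 4, 5 passed, 2 higher and 3 lower, against 21.5% (9.84% and 11.7%). By day 4 *Spi1* and *Klf4* were higher and *Cebpa*, *Myc* and *Myb* lower. *Myb* is again not counted as support, leaving 4 members on days 3 and 4. Below, some members are said to lie above or below all 6 control libraries of the day. The share of all genes doing so was not counted, so these statements are a description only. On day 2, 4 members lay above (*Spi1*, *Cebpb*, *Klf4*, *Runx1*) and 2 below (*Cebpa*, *Myb*). On day 3, 2 lay above and 5 below, and on day 4, 2 above and 3 below.

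*Cebpa* was lower on 3 days. On day 2 it had 50.1 and 42.0 CPM in the deleted arm against 67.3 and 70.1 in 4-OHT WT/FL. On day 3 the values were 81.4 and 77.9 against 128 and 127, and on day 4, 103 and 99.0 against 155 and 164. Both deleted libraries lay below all 6 control libraries on each of these days. The log2 difference was −0.57 (SE 0.118, adjusted p = 0.00171), −0.68 (SE 0.115, adjusted p = 0.000208) and −0.65 (SE 0.115, adjusted p = 0.000137). On day 2 the call was lost without any 1 of 3 of the 4 libraries, replicates 1 and 2 of 4-OHT WT/FL (−0.60, adjusted p = 0.0115, and −0.55, adjusted p = 0.0253) and replicate 2 of the deleted arm (−0.46, adjusted p = 0.0533). As an interaction with the untreated genotypes the difference passed on day 4 (−0.74, SE 0.161, adjusted p = 0.00243; 10.4% of all genes passed) but not on day 2 (−0.57, adjusted p = 0.0414) or day 3 (−0.67, adjusted p = 0.0102; 4.65% of all genes passed).

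*Spi1* was higher on days 2 and 4. It had 445 and 456 CPM in the deleted arm against 363.5 and 394.5 CPM in 4-OHT WT/FL on day 2, and 544 and 544 CPM against 421 and 416 CPM on day 4. On day 3, at 456 and 446 CPM against 436 and 423 CPM, the deleted libraries again lay above all control libraries, but the difference of 0.07 did not pass (adjusted p = 0.476). The log2 differences on days 2 and 4 were 0.25 (SE 0.0603, adjusted p = 0.00469) and 0.38 (SE 0.0603, adjusted p = 1.57e-05). The former was lost without replicate 1 of 4-OHT WT/FL (0.19, adjusted p = 0.13) or without replicate 1 or 2 of the deleted arm (0.27, adjusted p = 0.0253, and 0.23, adjusted p = 0.0579). It was also lost when only the 4 libraries compared were fitted (adjusted p = 0.0142) and as an interaction with the untreated genotypes (0.29, adjusted p = 0.0359). Untreated FL/FL cells were also somewhat above untreated WT/FL on day 4 (0.19, adjusted p = 0.102), and the interaction that subtracts this was 0.19 (adjusted p = 0.136). The step from day 3 to day 4 differed between the genotypes by 0.31, which did not pass (adjusted p = 0.0249; 3.7% of all genes passed) but did without either untreated FL/FL library of day 1 (adjusted p = 0.00184 and 0.00186).

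*Klf4* was higher in the deleted arm on days 3 and 4. The deleted arm had 20.4 and 20.0 CPM on day 3 against 11.1 and 11.8 in 4-OHT WT/FL, and 17.9 and 18.6 on day 4 against 14.4 and 9.36. The deleted libraries lay above all 6 controls on days 2, 3 and 4. The log2 difference was 0.24 on day 2 (adjusted p = 0.356), 0.82 on day 3 (SE 0.147, adjusted p = 0.000202) and 0.61 on day 4 (SE 0.147, adjusted p = 0.00222). The day 4 call was lost without replicate 2 of 4-OHT WT/FL (0.34, adjusted p = 0.0947), without replicate 1 or 2 of the deleted arm (0.64, adjusted p = 0.0141, and 0.58, adjusted p = 0.0216) and when only the 4 libraries compared were fitted (adjusted p = 0.0527). Untreated FL/FL cells were at 0.35 over untreated WT/FL on day 4 (adjusted p = 0.249). The interaction that subtracts the untreated difference did not pass on day 3 (0.73, adjusted p = 0.0311) or day 4 (0.26, adjusted p = 0.488).

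*Myc* was lower on days 3 and 4. It had 2.22 and 2.14 CPM in the deleted arm against 5.37 and 3.98 CPM in 4-OHT WT/FL on day 3, and 7.03 and 6.14 CPM against 17.8 and 14.5 CPM on day 4. Both deleted libraries were below every control library on both days. The log2 difference was −1.11 (SE 0.159, adjusted p = 9.63e-06) and −1.29 (SE 0.132, adjusted p = 1.33e-08), after 0.12 on day 2 (adjusted p = 0.657). The step from day 2 to day 3 differed between the genotypes (−1.23, SE 0.203, adjusted p = 0.000981), as did 0.905% of all genes. That call was lost without replicate 1 of 4-OHT WT/FL on day 3 (−0.99, adjusted p = 0.0159) or replicate 2 of the deleted arm on day 3 (−1.20, adjusted p = 0.0141). Of the 20 MYC-linked genes 3 were higher and 5 lower on day 4 (median −0.19, against −0.04 over all genes), *Nop16* (−0.67), *Cad* (−0.64), *Srm* (−0.50), *Cdk4* and *Ncl* being lower and *Odc1*, *Wdr43* and *Eif4e* higher. Cell division genes were lower on day 4 (12 of 15, median −2.09; *Ccna2* −3.58, *Plk1* −3.57, *Birc5* −3.05), their sum being 349 to 361 CPM in the deleted arm and 515 to 552 CPM in 4-OHT WT/FL. On day 3 only 1 of 15 was lower (median −0.06). The part of cell division in the *Myc* difference was not tested.

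*Runx1* was lower on day 3, at 86.2 and 92.9 CPM against 113 and 110 (log2 difference −0.31, SE 0.0644, adjusted p = 0.000728), after which 102 and 111 CPM on day 4 overlapped the controls (−0.10, adjusted p = 0.296). The day 3 call was lost without replicate 1 of 4-OHT WT/FL (adjusted p = 0.0149) or of the deleted arm (adjusted p = 0.0285). *Maf* was below all 6 controls on day 3, at 959 and 978 CPM, but the difference of −0.15 from 4-OHT WT/FL did not pass (adjusted p = 0.0632). Against untreated FL/FL cells it did (−0.25, adjusted p = 0.000942). On day 4 the *Maf* difference was −0.03 (95% confidence interval −0.14 to 0.08). For *Cebpb* it was 0.11 (−0.18 to 0.39). Of the genes linked to c-MAF, 0 of 4 passed in edgeR on day 4 (0.29 to 0.53, adjusted p 0.0352 to 0.192). In the deleted arm *C1qa* had 1265 and 1282 CPM against 688 to 989 in the 6 controls, and *C1qb* 3187 and 3527 against 2176 to 2688. For *C1qc* the values were 2068 and 2088 against 1427 to 1766, and for *Il10* 10.6 and 11.9 against 4.60 to 7.92. How many of all genes lay so far from the controls was not counted, so these values are a description only.

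*Myb* fell out of detection in the deleted arm. It had 36 and 21 counts on day 1, 4 and 3 on day 2, 1 and 2 on day 3 and 0 and 0 on day 4, against 17 and 29, 5 and 10, 16 and 17, and 11 and 14 in 4-OHT WT/FL. The ratio of the deleted arm to 4-OHT WT/FL was 0.0954 (95% interval 0.0187 to 0.304, counting error only) on day 3, and on day 4 *Myb* was at least 2.81-fold lower against a floor of 3 counts per library. The test passed on both days (adjusted p = 0.00298 and 0.000346), but on day 3 it was lost without any 1 of its 4 libraries (adjusted p 0.0103 to 0.0404). *Gfi1* had 2 counts at most in any deleted library.

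**Figure D3:**
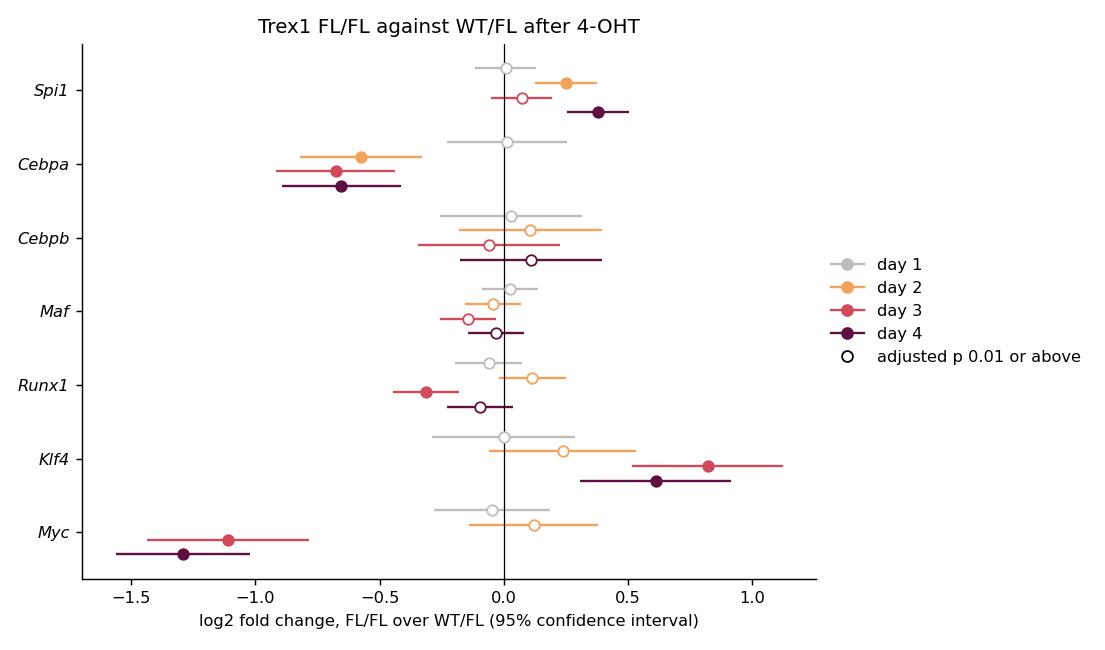
Log2 difference between 4-OHT FL/FL and 4-OHT WT/FL (horizontal axis) for 7 members on each day, with 95% confidence intervals and filled points where the adjusted p is under 0.01. No member passed on day 1, and on day 4 *Spi1* (0.38) and *Klf4* (0.61) lay above 0 and *Cebpa* (−0.65) and *Myc* (−1.29) below.

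**Figure D4:**
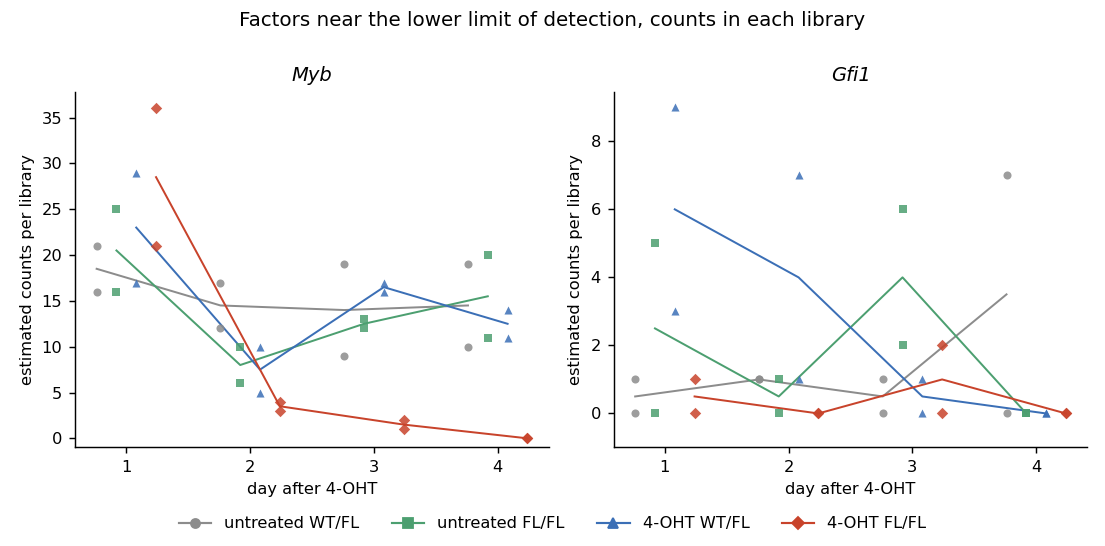
Counts of *Myb* and *Gfi1* (vertical axis) in each library by day after 4-OHT (horizontal axis). *Myb* reached 0 counts in both *Trex1*-deleted libraries on day 4, with 10 to 20 in the control libraries, while *Gfi1* never exceeded 9.

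Interferon-inducible genes, which report the type I interferon response, were higher in the deleted arm on days 2, 3 and 4. Summed over 10 genes they had 7082 to 7204 CPM in the deleted arm on day 2, 6543 to 7340 on day 3 and 7723 to 8039 on day 4. The control arms had 1380 to 2055, 1861 to 2980 and 819 to 1244 CPM. All 10 were higher on each of the 3 days (day 4: *Cxcl10* 3.65, *Rsad2* 3.42, *Mx1* 3.27), and their part in the members' differences was not tested. Macrophage markers summed to 29812 to 32122 CPM in the deleted arm on day 2 (controls 31934 to 36897) and 44869 to 44922 on day 3, below the 49166 to 53323 of every control library. On day 4 they summed to 35061 to 36680 CPM, within the 33584 to 37560 of the controls, and 2 of 9 were higher (*Fcgr1* 2.27, *Cd14* 0.29) and 2 lower (among them *Itgam*, −0.35). Sums of markers of 3 other cell types were lower in the deleted arm than in every control library on day 4: neutrophil 10.3 to 10.7 CPM against 13.1 to 25.3, dendritic cell 0.664 to 1.36 against 1.51 to 2.03, and erythroid 0 to 0.424 against 0.533 to 1.26. No single gene of these 3 lists passed in edgeR that day. Other sums overlapped the controls: B cell 3.63 to 4.24 CPM against 3.97 to 6.58, stromal 0.817 to 0.858 against 0.675 to 2.90, and progenitor and granule 0.332 to 0.454 against 0.130 to 0.755. The part of these marker levels in the members' differences was not tested. Among 24 family members and partners, 5 were higher and 9 lower on day 4 (median −0.32), with *Mxd3* (−2.70), *Mycl* (−2.62), *Mybl2* (−1.81) and *Spic* (−0.90) lower and *Runx3* (1.07), *Mafk* (0.73) and *Mxd1* (0.51) higher. Of 15 other macrophage and dendritic cell factors 3 were higher (*Nr1h3* 0.72, *Pparg*, *Ikzf1*) and 2 lower (*Egr2* −1.53, *Tfec* −0.66). Of 11 progenitor factors 1 was lower (*Sox4*, −1.32).

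**Figure D5:**
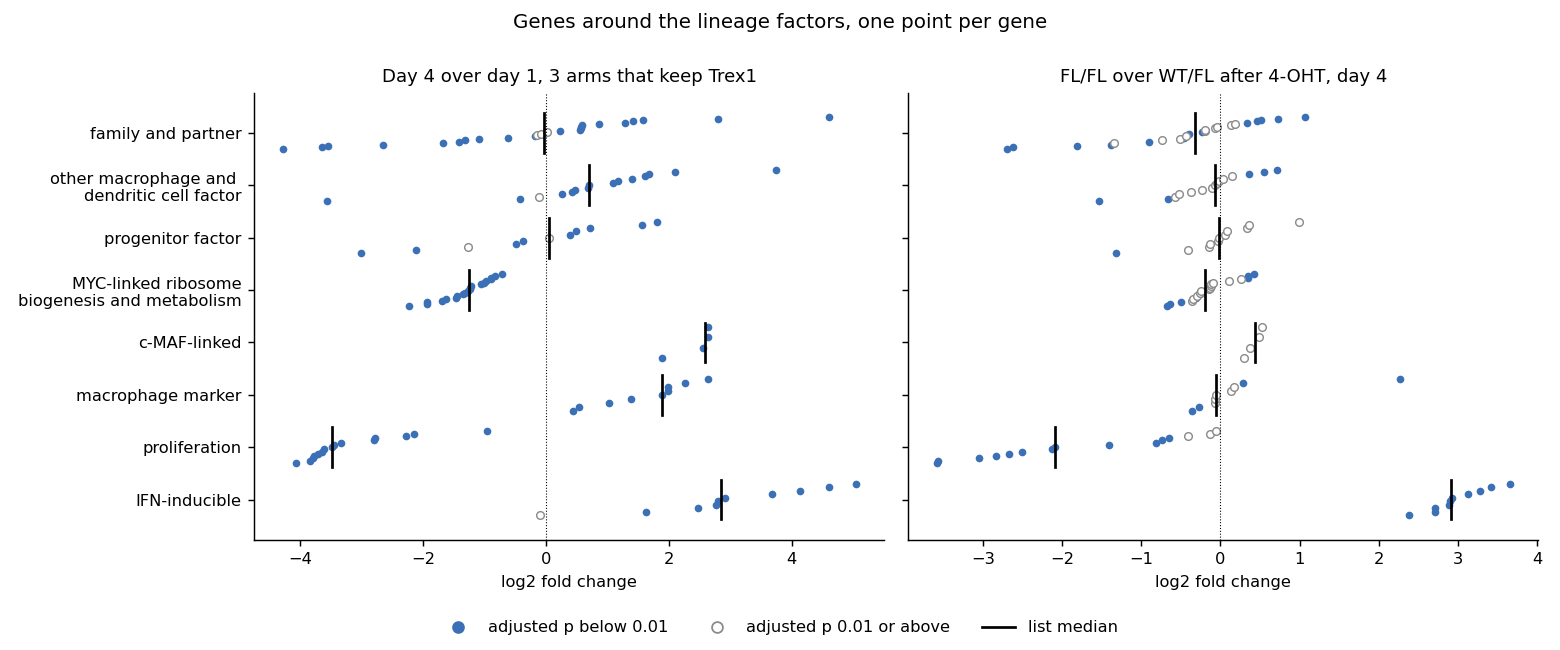
Log2 fold change (horizontal axis) of the genes of 8 lists, 1 point per gene with black bars at the medians, from day 1 to day 4 in the control arms (left) and between genotypes after 4-OHT on day 4 (right). Cell division genes had medians of −3.49 and −2.09, MYC-linked genes −1.25 and −0.19, and interferon-inducible genes 2.86 and 2.92.

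Neither 4-OHT treatment of WT/FL cells nor the untreated genotype moved the members past the test. The former comparison holds 4-OHT, Cre activity and loss of the floxed *Trex1* allele together. Mean *Trex1* on days 1 to 4 was 13.6, 57.2, 74.2 and 48.4 CPM in 4-OHT WT/FL cells. In untreated WT/FL cells it was 30.3, 119, 135 and 84.3 CPM. For 4-OHT against no treatment in WT/FL cells, 0 members passed on any day in edgeR or in DESeq2. At an unadjusted p under 0.05 the count was 0 on days 1, 2 and 4 and 1 on day 3 (*Klf4*), with 0.00655%, 0.0918%, 0.341% and 0.216% of all genes passing. Between untreated genotypes, 0 passed on any day in either tool, with 4, 1, 0 and 2 members at an unadjusted p under 0.05 on days 1 to 4 and 0%, 0%, 0% and 0.0655% of all genes passing. The 4 on day 1 were *Spi1*, *Cebpa*, *Cebpb* and *Maf*. When the partner of the library that stood apart was left out, so that it alone stood for its group, 3 members passed on day 1, all lower in FL/FL cells: *Spi1* (−0.28), *Cebpa* (−0.63) and *Cebpb* (−0.74).

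Across the 32 libraries, the genes whose log2 CPM followed each member most closely among the 15257 tested are given as a description, since days, arms and libraries are shared by all pairs. They were *Dok1* and *Rrbp1* for *Spi1* (Pearson r = 0.966 and 0.963), *Slc43a2* and *Glul* for *Cebpa* (0.962 and 0.960), *Zfp622* and *Ring1* for *Cebpb* (0.930 and 0.925), *Gas6* and *Zfp385a* for *Maf* (0.994 and 0.992), *Lactb* and *Emp3* for *Klf4* (0.976 and 0.965), *Mta3* and *Arhgef2* for *Runx1* (0.983 and 0.982), *Ptgr3* and *Ptprs* for *Myb* (0.895 and 0.876) and *Nav2* and *Gspt1* for *Myc* (0.982 and 0.981). Between members, *Klf4* ran opposite to *Runx1* (r = −0.881) and *Cebpa* (−0.871), and *Maf* opposite to *Myc* (−0.864).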

How the data were processed

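RNA was measured in 32 libraries of BMDM cultures sequenced on an Illumina NovaSeq. The authors demultiplexed the reads, checked them with FastQC 11.9 and obtained estimated counts per gene with Salmon and tximport on GRCm39, and the deposited table holds these as whole numbers (DESeq2 1.32 is also in the submitters' processing notes). Salmon's version and use of strand are not given in the sources used here. Symbols came from GENCODE M39, which matched 51048 of 54281 identifiers; the unmatched held 0.32% of counts. In R 4.3.3, edgeR 4.0.16 (TMM, minimum count 10, robust quasi-likelihood, 16 groups, 16 residual degrees of freedom, 15257 genes) gave log2 fold changes, standard errors and p-values, adjusted by the Benjamini-Hochberg method over all tested genes in each comparison; "passed" means under 0.01. Log2 CPM used a prior count of 2. An exact permutation test of 2 against 2 libraries cannot go below 0.33 and was not used. The interval of the *Myb* ratio and the floor of 3 counts cover counting error only. Confidence intervals of log2 fold changes and differences used edgeR's standard errors, which include the spread between libraries. Alternatives were DESeq2 1.42.0, another scaling, other count filters, subsets of arms and each library left out. The fit was tested on simulated data, in which most of the smaller changes made at this number of libraries were not called, so a member that did not pass may have changed by a small amount. Members and gene lists were chosen with earlier results of these data known. Named list genes were the 3 with the largest change among those past the test in each list; others named were chosen after their values were seen.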

Additional observations from a re-analysis of the deposited data

Results flagged for a closer look

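*Runx1*, *Myc*, *Cebpa* and *Myb* each had a genotype difference that itself differed between days or treatments, in edgeR's tests of those differences. From day 2 to day 3 the difference between 4-OHT FL/FL and 4-OHT WT/FL changed by −0.43 for *Runx1* (log2 scale, SE 0.0918, adjusted p = 0.00935) and by −1.23 for *Myc* (SE 0.203, adjusted p = 0.000981). The *Runx1* call was lost with RLE scaling (adjusted p = 0.0118) and in 23 of the 32 fits that left out 1 library, at −0.34 (adjusted p = 0.0902) without replicate 2 of 4-OHT WT/FL on day 2 and −0.37 (adjusted p = 0.0686) without replicate 1 of the deleted arm on day 3. The *Myc* call was lost in 2 of the 32. On day 3 the genotype difference after 4-OHT differed from that without 4-OHT by −0.40 for *Runx1* (SE 0.0911, adjusted p = 0.00494) and −0.97 for *Myc* (SE 0.216, adjusted p = 0.00407). On day 4 the same test gave −0.74 for *Cebpa* (SE 0.161, adjusted p = 0.00243), −1.21 for *Myc* (SE 0.179, adjusted p = 1.41e-05) and −6.59 for *Myb*, a fitted value against 2 libraries at 0 counts that is no bound on its change (SE 1.53, adjusted p = 0.00279). *Myb* is in the fit only through groups in which it was detected, so its value supports nothing here.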

How the results depend on the processing

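No paired analysis was possible because the labels give no replicate numbers, animals or batches. The sample titles do run in sequence from day 1 to day 4 within a genotype and treatment. Whether the libraries of such a run came from the same marrow is not stated. If they did, the comparisons between days and treatments treated related libraries as independent. A pairing guessed from these runs was not tested. Counts of members past the test kept within 1.5 times of the main count in 103 of 116 recomputations with other settings, and no called member changed direction. The exceptions follow. Scaling by RLE left 1 member (main 2) for the change of the genotype difference from day 2 to day 3. Without a count filter 1 member passed (main 0) for that change from day 1 to day 2 and 1 (main 0) between untreated genotypes on day 1. DESeq2 gave 1 (main 0) for the change from day 1 to day 2 and 1 (main 0) from day 3 to day 4. Fitting only the 4 libraries compared left 1 of 2 members on day 2 and 3 of 5 on day 4 in the genotype comparison, and the interaction with untreated cells left 0, 2 and 3 of the 2, 5 and 5 on days 2, 3 and 4. Each control arm taken alone gave 1 member (main 2) from day 3 to day 4. With each library left out in turn, the counts ranged from 5 to 7, 7 to 7, 2 to 3 and 7 to 7 for the 4 day comparisons of the control arms (day 1 to 2, 2 to 3, 3 to 4, 1 to 4), and from 4 to 6, 3 to 4, 1 to 4 and 7 to 8 for those of the deleted arm. They ranged from 0 to 2, 3 to 5 and 4 to 5 for the genotype comparison on days 2, 3 and 4, from 0 to 1, 0 to 2 and 0 to 1 for its change between days, and from 0 to 3 between untreated genotypes on day 1. A lone library left in a group was assumed to vary like the others. Each gene's spread was estimated over all libraries of a fit, so leaving out a library also altered tests that did not compare its group. How much of each difference this made was not tested. Low counts limited what could be said of *Myb* and *Gfi1*.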
